A study of Mus musculus with 6 samples.

Results

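The nicotinic acetylcholine receptor genes and the genes that hold the receptor at the neuromuscular junction were examined in mouse tongue. The set holds 10 genes, taken by symbol from a table of read counts for 24067 genes: the receptor subunits Chrna1, Chrnb1, Chrnd, Chrne, Chrng and Chrna10, and Musk, Dok7, Rapsn and Ncam1. All 10 were present and all 10 passed the filter on low counts, which left 15903 genes.

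The table covers 6 tongues of C57BL/6 mice about 34 weeks old, 3 labelled as wild type for HuR and 3 as HuR knockout. Mice of both genotypes had received the oral carcinogen 4-nitroquinoline 1-oxide for 16 weeks and were then kept for 12 more weeks, and each tongue was excised with its tumour. The labels name no Cre driver, promoter, deleted exon or control allele, so they do not say which cells of a tongue were to lose HuR. Beyond replicate numbers and sample identifiers the labels say nothing of the replicates, and p-values measure the spread between these libraries.

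HuR is the product of Elavl1 and binds AU-rich stretches in messenger RNAs. Elavl1 stood at 59.3 to 78.4 CPM in the libraries labelled KO and at 48.0 to 61.7 CPM in those labelled WT, so its count did not show a loss, and groups are named below by label alone. CPM is the count per 1000000 counts of a library, after scaling each library by TMM, a factor that balances libraries of unlike composition. Where 3 values of a group follow each other they are those of replicates 1, 2 and 3 in that order. Total counts were 29543352 to 51520707. A list of 24 fast muscle genes held 5.20 to 7.11% of all counts in the libraries labelled KO and 8.99 to 13.7% in those labelled WT, and 20 keratinocyte genes held 4.77 to 6.38% and 1.88 to 3.55%. By Xist and Y-linked counts, 2 of the mice labelled KO were female and the other 4 mice were male. In whole tongue, fewer muscle fibres and less RNA per fibre cannot be told apart.

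The muscle acetylcholine receptor is a ring of subunits in the fibre membrane under the motor nerve ending. Fetal and denervated muscle makes it with the gamma subunit, and innervated adult muscle replaces gamma by epsilon. Nerve-derived agrin binds Lrp4 and so activates the kinase MuSK, the adaptor Dok7 sustains that activity, and rapsyn clusters the receptors. Myogenic factors act on receptor genes through E-boxes, and the N-box, a site for Ets factors of the GABP type, restricts some of them to nuclei under the synapse. HuR has been reported to bind and stabilise the messenger RNAs of Chrnb1 and of acetylcholinesterase, Ache, in muscle.

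Most of the 10 genes were lower in the libraries labelled KO. Of the 10 genes, 6 fell at an adjusted p under 0.05 (edgeR, quasi-likelihood, adjusted by Benjamini-Hochberg over all genes tested) and 0 rose, also at an unadjusted p under 0.05. Over all genes tested 7.43% were called lower and 4.81% higher. Chrna1, Chrnb1, Chrnd, Chrna10, Musk and Ncam1 fell. Rapsn had a fold change of the same size with an adjusted p of 0.0547, and Chrne, Chrng and Dok7 did not pass. The median log2 fold change of the 10 genes was -0.96, beside 0.02 for all genes tested and -1.01 for the 24 fast muscle genes. In 7 of the 10 all libraries labelled KO lay below all those labelled WT, as in 22.1% of all genes.

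The adjusted calls depended on the libraries kept, while the unadjusted ones moved little, from 7 of the 10 lower with all libraries (20.3% of all genes). Without KO replicate 1, KO replicate 2, KO replicate 3 or WT replicate 2, edgeR called 0 of the 10 genes, with 7, 7, 8 and 7 lower at an unadjusted p under 0.05, where 14.2%, 14.4%, 18.2% and 14.5% of all genes were. No other tool was run on these subsets. In the same fits it called 6, 0, 3 and 1 genes lower over the whole table. Without WT replicate 3 it called 2, Chrna10 and Musk, against 2.69% of all genes lower, and without WT replicate 1 it called 7, the 6 and Rapsn, against 18.1%. DESeq2 called 7 of the 10 lower and 0 higher, against 15.9% of all genes called lower, and limma-voom 6 and 0, against 7.99%. In the authors' deposited table, of the 9 genes with an adjusted p, 7 were lower in Group-A, the group labelled KO, with adjusted p-values of 5.89e-10 (Chrna10) to 0.00688 (Rapsn), where 16.3% of all genes were called lower.

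**Figure D1:**
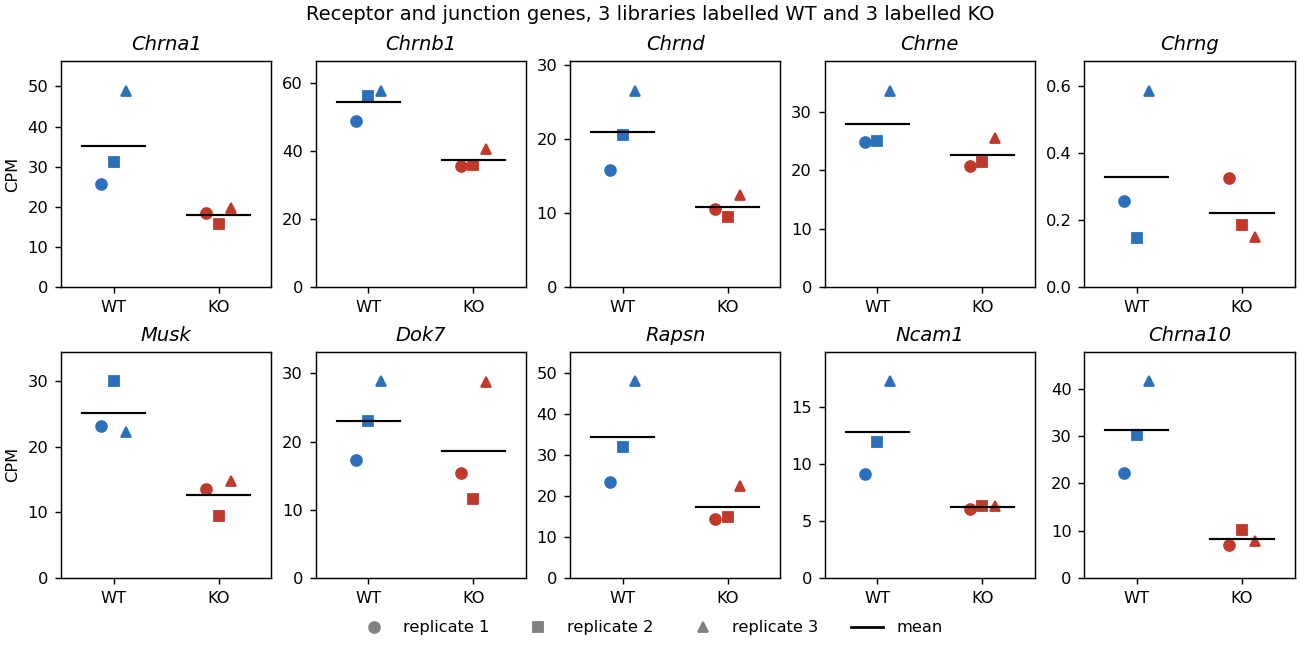
Levels in CPM (vertical axis, each from 0) of the 10 genes in the 3 libraries labelled WT (blue) and the 3 labelled KO (red), with replicates as circles, squares and triangles and the mean as a bar. In Chrna10 the libraries labelled KO sit between 6.97 and 10.2 CPM and those labelled WT between 22.1 and 41.5 CPM, while in Chrne, Chrng and Dok7 the groups overlap.

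Chrna1 encodes the alpha subunit, which carries the acetylcholine binding site. It measured 18.6, 15.8 and 19.9 CPM under the KO label and 25.6, 31.3 and 49.0 CPM under the WT label. The groups did not overlap, and WT replicate 3 was the highest library. The mean was 18.1 ± 2.07 CPM (SD, n = 3) in the libraries labelled KO against 35.3 ± 12.2 CPM, a log2 fold change of -0.96 ± 0.24 (SE, edgeR adjusted p = 0.0433), or 51.4% of the level in the libraries labelled WT.

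Chrnd, the delta subunit, moved with it. Its levels were 10.5, 9.47 and 12.5 CPM under the KO label and 15.8, 20.6 and 26.5 CPM under the WT label, again with no overlap (log2 fold change -0.95 ± 0.21, edgeR adjusted p = 0.0373). Chrnb1, the beta subunit shared by fetal and adult receptors, fell less in size. It measured 35.6, 35.9 and 40.6 CPM under the KO label and 48.8, 56.3 and 57.8 CPM under the WT label. Its groups were 8.21 CPM apart at their nearest, with a log2 fold change of -0.54 ± 0.12 (edgeR adjusted p = 0.0375).

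The adult epsilon subunit did not pass. Chrne measured 20.7, 21.3 and 25.5 CPM under the KO label and 24.9, 25.0 and 33.6 CPM under the WT label. KO replicate 3 lay above WT replicates 1 and 2, so the groups overlapped. Its log2 fold change of -0.30 ± 0.16 had a 95% interval of -0.68 to 0.07 (adjusted p = 0.200 by edgeR). The estimate for Chrna1, -0.96, lay outside this interval, but the 95% interval of Chrna1 itself, -1.51 to -0.41, overlapped it.

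The fetal gamma subunit was close to the limit of the counting. Chrng had 15, 7 and 8 counts in KO replicates 1, 2 and 3 and 9, 7 and 15 counts in WT replicates 1, 2 and 3, which is 0.151 to 0.327 CPM and 0.146 to 0.586 CPM. The groups overlapped and the highest library of each was another replicate number. The log2 fold change of -0.48 ± 0.59 (95% interval -1.84 to 0.88, edgeR adjusted p = 0.567) turned to 0.16 without WT replicate 3, and a difference was not detectable at this depth.

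Among the anchoring genes, Musk, the receptor tyrosine kinase that organises the postsynaptic membrane, measured 13.5, 9.50 and 14.7 CPM under the KO label and 23.2, 30.0 and 22.2 CPM under the WT label. The groups did not overlap, and here WT replicate 2 was the highest library. The log2 fold change was -0.997 ± 0.20 (edgeR adjusted p = 0.0338).

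Rapsn, which encodes rapsyn, measured 14.3, 14.8 and 22.5 CPM under the KO label and 23.4, 32.0 and 47.9 CPM under the WT label. KO replicate 3 came within 0.87 CPM of WT replicate 1 without crossing it. The log2 fold change was -0.995 ± 0.28 (edgeR adjusted p = 0.0547), and Rapsn passed with DESeq2 (adjusted p = 0.00700).

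Dok7 encodes the adaptor that binds and activates MuSK. It measured 15.4, 11.6 and 28.7 CPM under the KO label and 17.3, 23.0 and 28.8 CPM under the WT label. KO replicate 3 reached the level of the highest library labelled WT, and the libraries labelled KO had the widest spread of the 10 genes relative to the mean (18.6 ± 8.96 CPM, SD, n = 3). Its log2 fold change of -0.31 ± 0.33 had a 95% interval of -1.08 to 0.46 (adjusted p = 0.514 by edgeR), and with single libraries left out it ran from -0.77 (without KO replicate 3) to -0.060 (without KO replicate 2).

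Ncam1, a cell adhesion molecule of the junction, of satellite cells, of non-myelinating Schwann cells and of taste cells, measured 6.04, 6.35 and 6.34 CPM under the KO label. Under the WT label it measured 9.12, 11.9 and 17.2 CPM. The libraries labelled KO were nearly level with each other and all lay below the other group, with a log2 fold change of -1.03 ± 0.23 (adjusted p = 0.0380 by edgeR). Since the mice labelled KO included both sexes, the male KO replicate 1 was set beside the 3 male mice labelled WT: it lay below all 3 in 9 of the 10 genes, the exception being Chrng, as did 37.1% of all genes tested. With sex as a covariate edgeR called 0 of the 10, with 7 lower at an unadjusted p under 0.05 (11.7% of all genes), and 0 genes over the whole table at the adjusted threshold. No other tool was run with it.

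Fetal and adult subunits were compared by their ratio within a library. Ratios of raw counts, as in the percentages and the values per kilobase, do not depend on the scaling of libraries. The log2 ratios include a prior count of 2, adjusted to library size, which draws those of low counts such as Chrng toward 0. Gamma counts were 0.589 to 1.55% of gamma and epsilon counts together in the libraries labelled KO and 0.581 to 1.72% in those labelled WT. For single libraries the exact Clopper-Pearson 95% intervals, which cover counting error only, ran from 0.255 to 1.16% in KO replicate 3 and from 0.964 to 2.81% in WT replicate 3. The log2 ratio of Chrng to Chrne was -6.43 ± 0.61 and -6.36 ± 0.64 (SD, n = 3) under the KO and WT labels, with overlap (2-sided exact permutation p = 0.8). Per kilobase of annotated exon, Chrne counts were 141 to 421 times those of Chrng over the 6 libraries, so epsilon exceeded gamma in every library.

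Against Chrna1, the subunit ratios moved unevenly. Chrna1 itself fell, with a log2 fold change of -0.96, beside a median of 0.02 for all genes tested. A higher ratio to Chrna1 in the libraries labelled KO is therefore not particular to a receptor subunit. The log2 ratio of Chrne to Chrna1 was 0.16, 0.43 and 0.36 under the KO label and -0.04, -0.32 and -0.54 under the WT label, with no overlap. The difference was 0.62 (exact permutation p = 0.1, 2-sided, the smallest that 3 against 3 allows, 0.25 adjusted over the 5 ratios). Chrnb1 to Chrna1 was higher by 0.38 in the libraries labelled KO, also with no overlap (exact permutation p = 0.1, 0.25 adjusted), although KO replicate 1 at 0.934 and WT replicate 1 at 0.928 nearly touched, and the difference was 0.16 without WT replicate 3. Chrnd to Chrna1 was level at -0.74 ± 0.08 and -0.73 ± 0.14 (SD, n = 3, exact permutation p = 1). Chrng to Chrna1 overlapped between the groups (difference 0.54, exact permutation p = 0.4).

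**Figure D2:**
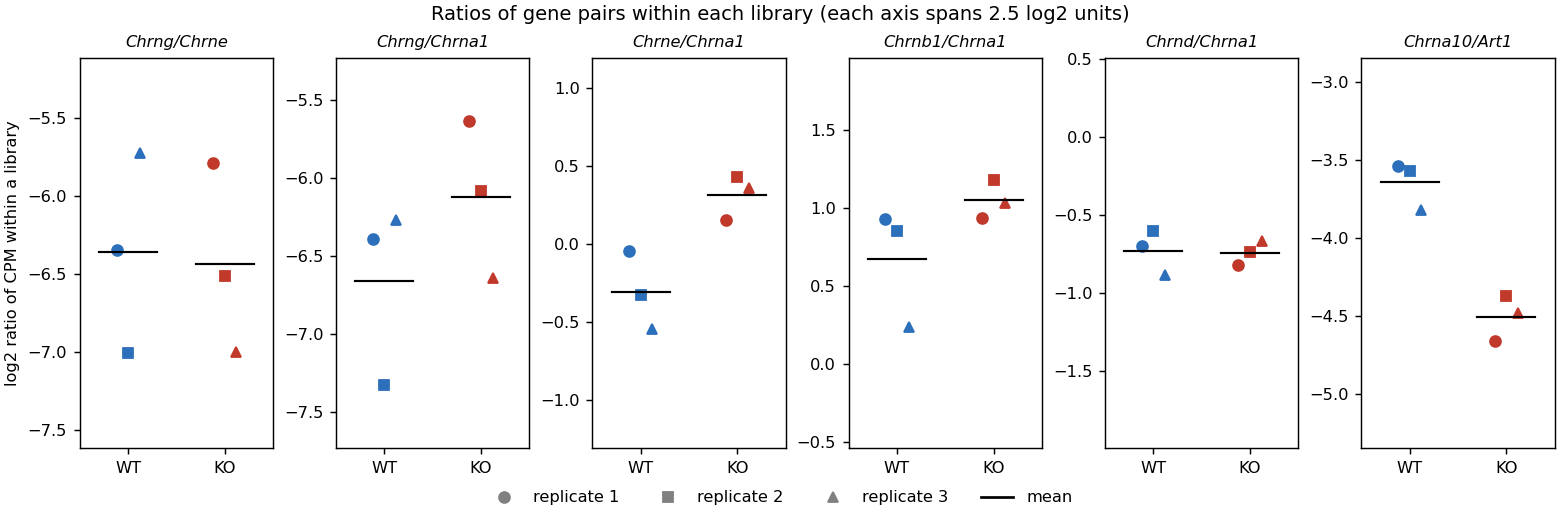
Log2 ratios of CPM within each library (vertical axes, all of the same span) for 5 pairs of receptor subunits and for Chrna10 against Art1, its overlapping neighbour, with libraries labelled WT in blue, labelled KO in red, replicates as symbols and means as bars. Chrne to Chrna1 is positive in the 3 libraries labelled KO and negative in the 3 labelled WT, and Chrng to Chrne overlaps.

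The sequences upstream of the alpha, epsilon and gamma genes are shown because gamma and epsilon are exchanged between the fetal and the adult receptor and alpha is the subunit to which their ratios were set. Each runs 5′ to 3′ on the gene's strand, from 250 bases before the annotated start to 50 after it, from RefSeq on GRCm38.p6. Capitals mark E-boxes (CANNTG, on either strand) and, in Chrne, the core of an N-box (CCGGAA, on either strand).
Chrna1, chr2:73580289-73580588, minus strand: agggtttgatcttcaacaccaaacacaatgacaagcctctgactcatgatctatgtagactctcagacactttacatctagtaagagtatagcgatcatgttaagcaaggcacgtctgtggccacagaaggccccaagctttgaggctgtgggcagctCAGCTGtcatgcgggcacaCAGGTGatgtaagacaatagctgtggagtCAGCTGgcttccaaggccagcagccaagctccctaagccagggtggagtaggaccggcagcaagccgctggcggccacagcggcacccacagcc
Chrne, chr11:70619145-70619444, minus strand: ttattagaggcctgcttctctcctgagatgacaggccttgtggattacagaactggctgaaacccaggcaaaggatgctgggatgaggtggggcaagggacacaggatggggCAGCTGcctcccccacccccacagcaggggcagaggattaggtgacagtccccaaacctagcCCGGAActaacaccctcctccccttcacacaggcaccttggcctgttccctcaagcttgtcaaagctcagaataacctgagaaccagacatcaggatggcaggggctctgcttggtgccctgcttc
Chrng, chr1:87205561-87205860, plus strand: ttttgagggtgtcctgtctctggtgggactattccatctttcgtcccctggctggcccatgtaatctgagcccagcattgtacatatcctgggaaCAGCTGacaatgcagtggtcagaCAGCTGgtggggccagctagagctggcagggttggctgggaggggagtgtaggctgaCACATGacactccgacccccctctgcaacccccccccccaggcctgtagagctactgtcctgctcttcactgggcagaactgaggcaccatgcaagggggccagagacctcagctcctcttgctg

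Chrna1 held 3 E-boxes, 92, 73 and 44 bases upstream of the start, of which those at 92 and 44 had the form CAGCTG. Chrng held 3, with CAGCTG at 155 and 132 bases upstream. Chrne held a lone E-box, CAGCTG at 138 bases upstream, and its CCGGAA lay 76 bases upstream. Among 32851 mouse promoter windows of this length, 72.3% held an E-box, 16.3% held CAGCTG and 14.9% held CCGGAA. RefSeq windows were matched for 7 of the 10 genes. CAGCTG was found in 4 of them, the 3 above and Musk (68 bases upstream), and CCGGAA in Chrne alone. These matches describe letters and not bound sites.

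AU-rich pentamers, AUUUA, were counted in the longest annotated 3′ untranslated region of each gene (GENCODE M21). Chrna1 held 8 in 2961 bases, Chrnd and Ncam1 held 2 each, Chrnb1, Chrng and Musk 1 each, and Chrne, Chrna10, Dok7 and Rapsn 0. At least 1 was held by 5 of the 6 genes that fell and by 1 of the 4 that did not pass. The latter include Rapsn, with a log2 fold change of -0.995 just past the threshold (edgeR adjusted p = 0.0547). Over 19925 coding genes with a 3′ untranslated region of at least 100 bases the median was 1, and 68.3% of genes held at least 1. The region of Chrne, at 90 bases, is shorter than those. The regions differ in length, and these counts are a description. Ache, where HuR binding has been reported, held 2 in 228 bases.

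Levels were also set relative to muscle, as log2 CPM of a gene minus the mean log2 CPM of the 24 fast muscle genes in the same library. For Chrna1, Chrnd, Musk, Rapsn and Ncam1 the groups then differed by 0.05, 0.04, -0.04, -0.00063 and -0.01, each with overlap (exact permutation p of 0.9, 0.9, 1, 1 and 0.9), and the sign of each turned when some single library was left out. Chrne was higher relative to muscle in the libraries labelled KO, at -5.16, -5.33 and -5.50 under the KO label and -5.70, -6.34 and -5.96 under the WT label. The groups did not overlap (difference 0.67, exact permutation p = 0.1, the smallest possible, 0.5 adjusted over the 10 genes). A rise on this scale was not particular to Chrne. With libraries scaled to the same 24 genes, edgeR called 58% of all genes higher. The median log2 fold change of all genes was then 0.97, above that of Chrne (0.65). Chrnb1, Dok7 and Chrng differed by 0.43, 0.58 and 0.59 with overlap (exact permutation p of 0.2, 0.2 and 0.5).

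Chrna10 was lower relative to muscle as well. Its relative level was -6.73, -6.39 and -7.19 under the KO label and -5.87, -6.06 and -5.66 under the WT label, a difference of -0.91 with no overlap (exact permutation p = 0.1, 0.5 adjusted over the 10 genes). In an edgeR fit of the whole table with libraries scaled to the 24 muscle genes, a choice made after seeing the data, Chrna10 was the member that passed (log2 fold change -0.89 ± 0.35, adjusted p = 0.0342), where 0.107% of all genes were called lower and 58% higher. That scaling moved the median of all genes by 0.95, to 0.97 on the log2 scale. Against this median the other members, at -0.04 (Musk) to 0.65 (Chrne), lay lower than the typical gene. With the muscle mean as a covariate instead, edgeR called 0 of the 10 genes and 0 of all genes. That mean was 9.54, 9.75 and 10.17 log2 CPM under the KO label and 10.34, 10.98 and 11.03 under the WT label. It did not overlap between the labels, so the fit can hardly separate the label from the muscle level. At an unadjusted p under 0.05 that fit had 1 member lower, Chrna10 (-1.20 ± 0.43, unadjusted p = 0.0234), and 188 genes lower and 179 higher over the table. No other tool was run with this covariate.

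**Figure D3:**
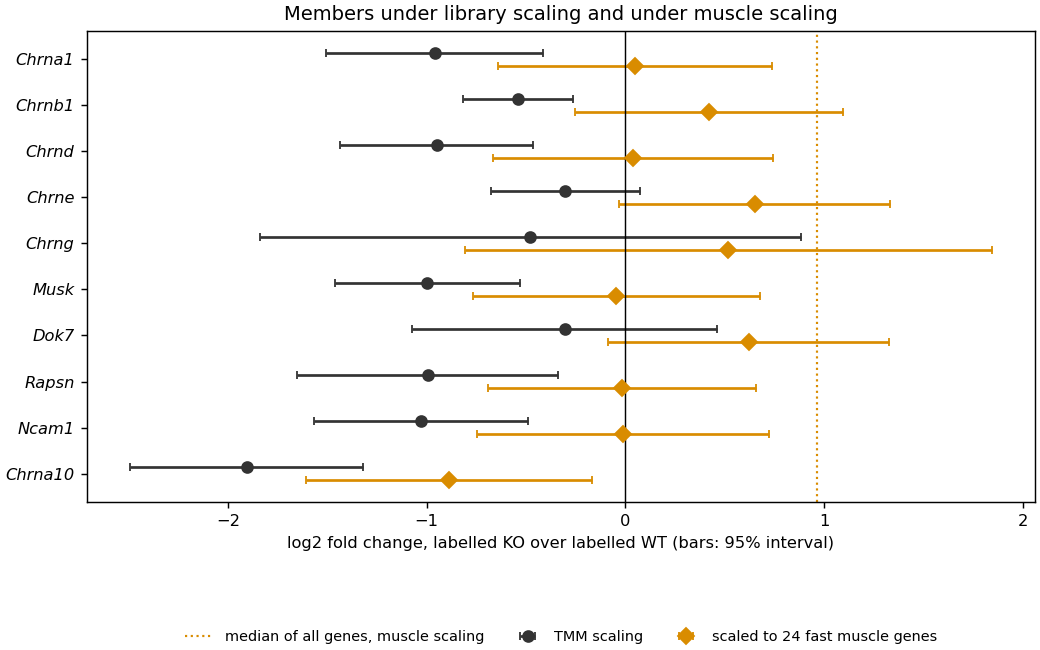
Log2 fold changes of labelled KO over labelled WT (horizontal axis) with 95% intervals for the 10 genes, from edgeR with TMM scaling (black) and with libraries scaled to 24 fast muscle genes (orange), where the dotted line marks the median of all genes (0.97). Under muscle scaling Chrna1, Chrnd, Musk, Rapsn and Ncam1 lie near 0, Chrnb1, Chrne, Chrng and Dok7 lie above it with intervals that include 0, and Chrna10 stays below it.

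Chrna10 encodes the alpha10 subunit, known from cochlear hair cells, where it pairs with alpha9. It had the largest fall of the 10 genes: 6.97, 10.2 and 7.85 CPM under the KO label against 22.1, 30.2 and 41.5 CPM under the WT label. The means were 8.34 ± 1.67 and 31.3 ± 9.75 CPM (SD, n = 3), a fold of 3.75 between them in the fit (log2 fold change -1.91 ± 0.25, edgeR adjusted p = 0.0295). Its partner Chrna9 had at most 5 counts in any library, 5, 3 and 0 under the KO label and 3, 1 and 0 under the WT label.

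The reads of Chrna10 may not all be its own. In GENCODE M21 on GRCm38 the gene lies at chromosome 7, 102111266 to 102116828, on the minus strand, and 1025 of its 2628 exonic bases (39.0%) are also exonic in Art1 on the opposite strand (102101743 to 102113933). In RefSeq the span of Art1 is longer, 102101706 to 102122062, and covers all of Chrna10 (102111260 to 102116971). The share of exonic bases was not computed for RefSeq. Art1, an ADP-ribosyltransferase of the skeletal muscle surface, had 8039 to 9334 counts in the libraries labelled KO and 8966 to 17267 in those with the WT label, and fell (log2 fold change -1.09 ± 0.29, edgeR adjusted p = 0.0484). Art1 fell by less than Chrna10 in size, and no source used here says whether counting used the strand, so reads of the shared bases cannot be assigned. Such reads may have been counted for either gene or left out. Per 100 Art1 counts there were 3.94, 4.80 and 4.46 Chrna10 counts in KO replicates 1, 2 and 3 and 8.61, 8.39 and 7.06 in WT replicates 1, 2 and 3. The log2 ratio was lower by 0.86 in the libraries labelled KO with no overlap (exact permutation p = 0.1, 2-sided, the smallest possible), a ratio chosen after the values were seen. Of the other members, Ncam1 shares 4.81% of its exonic bases with the antisense gene Gm11149, which had at most 1 count in a library, and Rapsn 0.222% with Gm13778.

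Per kilobase of annotated exon (GENCODE M21), the levels in the libraries labelled WT were in CPM per kilobase 21.5 ± 1.90 for Chrnb1, 19.1 ± 6.91 for Rapsn, 16.5 ± 2.96 for Chrne, 11.9 ± 3.71 for Chrna10 and 8.04 ± 2.78 for Chrna1 (SD, n = 3). Musk at 6.65 ± 1.12, Chrnd at 6.38 ± 1.63 and Dok7 at 5.39 ± 1.35 followed within their spread of each other, then Ncam1 at 1.47 ± 0.48 and Chrng at 0.079 ± 0.055. In the libraries labelled KO, Chrnb1 at 14.8 ± 1.11 and Chrne at 13.3 ± 1.53 stood above Rapsn at 9.56 ± 2.54. Dok7 at 4.35 ± 2.10, Chrna1 at 4.12 ± 0.47, Musk at 3.33 ± 0.73, Chrnd at 3.30 ± 0.47 and Chrna10 at 3.18 ± 0.64 lay within their spread of the next. By means, Chrna10 thus stood above Chrna1, Musk and Chrnd in the libraries labelled WT and below them in those labelled KO. Its libraries overlapped those of Chrna1 in both groups and those of Musk and Chrnd in the libraries labelled KO. Its level may include reads of Art1 or lack reads of the shared bases. No source used here gives the exons that were counted, so these per-length levels are approximate.

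The partners of the receptor at the junction moved unevenly. Counts within this and the next lists are by edgeR, read against 7.43% of all genes called lower and 4.81% called higher. Of 42 tested genes of agrin signalling, cholinesterases, anchors, basal lamina and neuregulin signalling, 7 fell and 2 rose, with a median log2 fold change of -0.32. DESeq2 called 16 lower and 5 higher, where it called 15.9% of all genes lower and 12.1% higher, and limma-voom 8 and 3, beside 7.99% and 6.14%. Ache, the esterase that ends transmission, fell from 73.6 ± 21.9 to 36.1 ± 4.77 CPM (log2 fold change -1.03 ± 0.22, edgeR adjusted p = 0.0354), with 32.0, 34.9 and 41.3 CPM under the KO label and 55.2, 67.8 and 97.8 CPM under the WT label. Bche, butyrylcholinesterase, fell by 1.03, Dtna, alpha-dystrobrevin, by 1.04 and the neuregulin receptor gene Erbb4 by 1.49 on the log2 scale. The Ets factor gene Etv4 rose (9.0 to 12.5 CPM in the libraries labelled WT and 19.9 to 27.5 CPM in those labelled KO, 1.24 ± 0.19). Etv4 and Cd24a, the other gene that rose, are also expressed in epithelium, and the share of keratinocyte genes was higher in the same libraries. Their part in these rises was not tested.

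The genes of agrin and its receptor, which act upstream of MuSK, did not pass. Whole tongue counts do not say which cells made the Agrn RNA, so they do not measure agrin from the nerve. Agrn stood at 226 to 271 CPM in the libraries labelled KO and 188 to 253 CPM in those labelled WT, a log2 fold change of 0.17 ± 0.16 (adjusted p = 0.437 by edgeR), and Lrp4 at -0.43 ± 0.15 (adjusted p = 0.0793). Colq, the collagen tail that anchors acetylcholinesterase, stood at -1.08 ± 0.33 (adjusted p = 0.0621), where WT replicate 3 had 46.2 CPM and the other libraries with that label 18.6 and 22.0 CPM.

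Other acetylcholine receptor genes were scarce. Of 18 listed genes 11 were tested, 1 fell and 0 rose, with a median of -0.47 (limma-voom also 0 higher, DESeq2 1, and 1 at an unadjusted p under 0.05 by edgeR). The gene that fell was Lynx1 (-1.25 ± 0.27, edgeR adjusted p = 0.0360), which encodes no subunit but a membrane-anchored modulator of nicotinic receptors. Slurp1, a secreted relative of it made by keratinocytes, stood at 0.998 ± 0.29 (adjusted p = 0.0568). The neuronal subunit gene Chrna4 stood at 1.48 to 2.04 CPM and 2.15 to 2.78 CPM, and the muscarinic receptor gene Chrm3 at 0.476 to 0.872 CPM and 0.717 to 1.10 CPM, in the libraries labelled KO and WT. Chrna6 had no count in any library.

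Genes of the denervation response and of muscle development were described because gamma, Musk and Ncam1 are among the genes that rise when muscle loses its nerve. Of 28 tested, 7 fell and 0 rose, and 22 lay below 0. The median was -0.91, beside -1.01 for the 24 fast muscle genes. DESeq2 called 13 lower and 0 higher, limma-voom 7 and 0, and at an unadjusted p under 0.05 edgeR had 17 lower and 1 higher. The gene that was higher was Runx1 (0.43 ± 0.17, edgeR adjusted p = 0.104). It stood at 18.2 to 24.7 CPM under the KO label and 13.9 to 17.8 CPM under the WT label, with no overlap. Myog, the myogenic factor that binds E-boxes of receptor genes, measured 12.0, 9.58 and 13.1 CPM under the KO label and 17.6, 21.2 and 30.8 CPM under the WT label (-0.999 ± 0.23, edgeR adjusted p = 0.0380). Its groups did not overlap. Fbxo32, the muscle ubiquitin ligase atrogin-1, fell by 1.55, Actc1, the fetal and cardiac actin, by 2.62 and Myh3, the embryonic myosin, by 1.38 on the log2 scale.

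Markers of the cells around the fibres are given for the same libraries. All 24 fast muscle genes lay below 0 and 9 fell (median -1.01), among them Trdn, Ttn, Cacna1s and Myl1. Of 23 genes of muscle structure 12 fell (median -0.999), among them Capn3, Dmd and Xirp2. DESeq2 called 21 of the fast muscle and 22 of the structure genes lower, and limma-voom 12 and 14. Against these medians Chrna1, Chrnd, Musk, Rapsn and Ncam1, at -0.95 to -1.03, lay within 0.1, Chrnb1, Chrne, Chrng and Dok7 above, and Chrna10 below. Summed over the 24 genes, the fast muscle list stood at 49052 to 69170 CPM in the libraries labelled KO and 86589 to 157744 CPM in those labelled WT.

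Of 18 Schwann cell genes, 3 fell (median -0.40): S100b, Cdh19 and Pmp22. DESeq2 called 6 lower and limma-voom 3. The list summed to 382 to 452 CPM in the libraries labelled KO and 498 to 656 CPM in those labelled WT. Of 13 tested genes of neurons and axon terminals 2 fell, Nos1 and Vip, and 1 rose, Tubb3 (median -0.70), with sums of 128 to 185 and 191 to 264 CPM. Most of these sums came from Nos1 and Tubb3. Nos1 stood at 44.9 to 84.2 CPM under the KO label and 120 to 196 CPM under the WT label. Tubb3 stood at 56.8 to 82.5 and 13.8 to 34.7 CPM. The sums thus say little of the other genes in the list or of nerve content. DESeq2 called 5 lower and 1 higher and limma-voom 1 and 1. Chat, which defines cholinergic neurons, stood at 0 to 0.109 CPM and 0 to 0.117 CPM. Of 10 tested taste bud genes 1 fell, Entpd2 (median 0.49), with overlapping sums of 275 to 335 and 199 to 293 CPM. DESeq2 called 1 of them lower and 1 higher, limma-voom 1 and 0, and at an unadjusted p under 0.05 edgeR had 2 lower and 5 higher (18.2% of all genes were higher by that measure). Of 20 keratinocyte genes 4 rose, Sprr1a, Grhl3, Tgm1 and Krt10 (median 1.09), with 11 higher by DESeq2 and 4 by limma-voom. In a further list of 8 markers of cells known to express Chrna10, 5 were tested and edgeR, DESeq2 and limma-voom called 0 of them in either direction. At an unadjusted p under 0.05 edgeR had 1 higher, Cd3e, and 0 lower. The part of each cell type in the fall of Ncam1 and of the receptor genes was not tested.

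**Figure D4:**
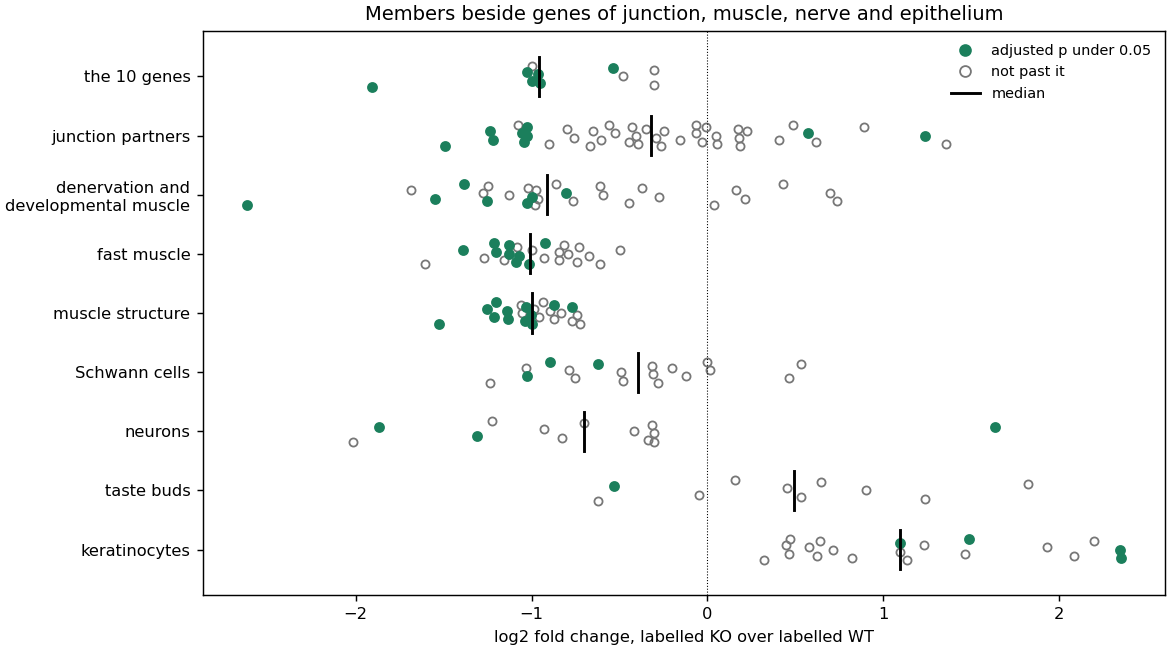
Log2 fold changes of labelled KO over labelled WT (horizontal axis) for the 10 genes and for tested genes of 8 lists (rows), with genes at an adjusted p under 0.05 filled, others open, and the median of each row as a bar. The medians of the 10 genes (-0.96), fast muscle (-1.01) and muscle structure (-0.999) lie close together, and that of keratinocytes (1.09) lies on the other side of 0.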

How the data were processed

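Read counts of 6 libraries, made from total RNA with Illumina TruSeq kits per the labels' protocols, were taken from the table of all 6 that the authors deposited. Per the file headers it holds raw counts per gene, which are whole numbers, and the authors' comparison of Group-B over Group-A, from which the log2 fold change was read for its sign and the adjusted p-value is printed, both as deposited. The submitters' processing notes name HTSeq, DESeq2, hg19 and mm10. For the aligner, the annotation and the strand: not given in the sources used here. Both tables of 4 libraries repeat these counts and were not used.

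Counts were fitted with edgeR 4.0.16 in R 4.3.3: filterByExpr (minimum count 10, total 15), TMM, robust quasi-likelihood with group as the only term, and Benjamini-Hochberg adjustment over 15903 genes at 0.05. The biological coefficient of variation common to all genes was 20.7%. Standard errors were the absolute log2 fold change over the square root of the F statistic, so they and the 95% intervals are approximate. DESeq2 1.42.0 and limma 3.58.1 (voom) were alternatives. Log2 levels used a prior count of 2, and single values exact permutation tests (2-sided), whose smallest p is 0.1 for 3 against 3. As a check of the code, the fit was also run on simulated counts with the same dispersion for every gene, which is simpler than these data. No result given here rests on that run. At 1 CPM a library has 25.6 to 53.0 counts. Gene models are GENCODE M21 (GRCm38, the assembly of mm10) and promoters RefSeq, GRCm38.p6.

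The 10 genes and the lists were chosen with earlier results of these data known. Named beside the 10 were Elavl1, Myog, Agrn, Lrp4, Colq, Ache and up to 4 genes per list by adjusted p. Art1, Cd24a and Chrna9, Chat, Chrna6, Runx1 and the antisense genes were named after their values were seen.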

Additional observations from a re-analysis of the deposited data

How the results depend on the processing

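The fall of 6 of the 10 genes was 6 with DESeq2's size factors in edgeR and by limma-voom, and 7 without a filter on low counts and by DESeq2. It was 2 with library totals alone, 0 with the fast muscle mean as a covariate, 0 with sex as a covariate, 1 with libraries scaled to the fast muscle list (chosen after seeing the data), and 0 to 7 when single libraries were left out. No gene of the 10 was called higher under any of these settings. Same-numbered libraries did not deviate together (correlations of deviations 0.12, -0.16 and 0.19 for numbers 1, 2 and 3), so the numbers were not taken as pairs. With the replicate block edgeR called 7 of the 10 lower and 2112 genes lower over the table, beside 1181 without it. With the block the paired permutation p of a ratio cannot go below 0.25, and its differences are those of the unpaired test.

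Scaling to the muscle list turned the sign of the log2 fold change for Chrna1 (0.049), Chrnb1 (0.42), Chrnd (0.039), Chrne (0.65), Chrng (0.52) and Dok7 (0.62). The muscle covariate turned it for Chrne (0.11), Dok7 (0.82) and Rapsn (0.13), and sex for Chrng (0.081). Values of the muscle covariate did not overlap between the labels. Over single libraries left out Chrng ran from -0.89 to 0.16, and it was not fitted without KO replicate 1, where it missed the filter. The level relative to muscle ran from -0.11 to 0.19 (Chrna1), -0.088 to 0.11 (Chrnd), -0.25 to 0.13 (Musk), -0.12 to 0.14 (Rapsn) and -0.13 to 0.15 (Ncam1), and for Rapsn was 0.0037 against the muscle structure list. The ratio difference ran from -0.39 to 0.24 for Chrng to Chrne and from -0.092 to 0.049 for Chrnd to Chrna1. The cause of these changes was not tested. Chrna10 stayed between -2.09 and -1.65 on the log2 scale and between -1.10 and -0.70 relative to muscle when single libraries were left out, and Chrne relative to muscle between 0.50 and 0.82. Depth limits Chrng, at 7 to 15 counts a library.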
